A study of Mus musculus with 2 samples.

Results

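Thrombospondins and other matricellular proteins were followed in sorted bone cells that lack or retain the transcription factor Ebf2. The genes were Thbs1, Thbs2, Thbs3, Thbs4, Comp, Tnc, Postn, Tgfbi, Sparc and Sparcl1, and a probe set (a group of short oligonucleotides for a transcript) was taken when its platform annotation gave exactly 1 gene symbol and that symbol was among these. This chose 19 of 45101 probe sets and 10 of 18194 genes. The cells came from Ebf2-/- and from Ebf2+/- embryos of the C57Bl/6 strain at E18.5, and both genotypes carried a lacZ marker for Ebf2 (Ebf2-lacZ). Preparations from tibia and femur were sorted for lacZ activity with the fluorogenic substrate FDG and then expanded in culture, without passaging, in alpha MEM with 10% FCS. Each genotype was measured on 1 Affymetrix Mouse Genome 430 2.0 array. Per the labels 3 mice were used per genotype; pooling of their RNA is not stated. No wild-type array was analysed here, so the Ebf2+/- cells, which have lost an Ebf2 copy themselves, are the only comparison.

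Matricellular proteins are secreted into the extracellular matrix, where they act less as scaffold than as regulators of how cells attach, migrate and receive growth factors. They are abundant in developing skeleton, tendon and healing tissue. Thrombospondins bind calcium, collagens and integrins, tenascin-C modulates adhesion to fibronectin, periostin and the TGF-beta-induced protein are built of fasciclin domains, and SPARC (osteonectin) is a collagen-binding glycoprotein of bone.

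In Ebf2-/- cells Thbs4 was 7.12-fold and Postn 3.39-fold higher than in Ebf2+/- cells, and Sparcl1, close to background, was 2.11-fold higher. Tgfbi was lower by all 4 of its probe sets, by 1.88-fold to 2.19-fold. Thbs3, Comp, Tnc and Sparc had higher signals in Ebf2-/- cells by less than 2-fold, and Thbs1 and Thbs2 differed by less than 2-fold on every probe set. With 1 array a genotype these are single measurements without a replicate check. No p-value was computed, and 2-fold served as the size of reference.

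The values are MAS5 signals, linear intensities in arbitrary units that the authors scaled to a common mean. Background was the 95th percentile of 84 olfactory, vomeronasal and taste receptor probe sets, 24.3 on the Ebf2-/- and 17.9 on the Ebf2+/- array. A gene or probe set above it on at least 1 array was called measured, and where it was above on 1 array only the fold is a lower bound. Probe sets for the same gene differed in log2 ratio with a pooled SD of 0.44 (a factor of 1.36, over 4095 genes). This covers disagreement between probe sets within the arrays. Error that shifts all probe sets of a gene together and the spread among animals are not in it. A ratio beyond this SD is therefore not shown to be repeatable. Precision is limited throughout by the number of arrays.

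Several features of the arrays bear on all the ratios. The Ebf2 transcript itself did not separate the genotypes: its brightest probe set read 20.6 on the Ebf2-/- array, under background, and 24.9 on the Ebf2+/- array. Another probe set was above background on the Ebf2-/- array only, with 25.1 in Ebf2-/- and 14.4 in Ebf2+/- cells, the opposite direction, and the last was under background on both. The position of these probe sets in the targeted allele is unknown, so they do not check the genotype labels. The 3' over 5' signal, which grows as RNA breaks down, was 2.79 in Ebf2-/- and 1.97 in Ebf2+/- cells for beta-actin, and 1.60 and 1.30 for Gapdh. Scaling the arrays to 18 bacterial and phage spike-in probe sets lowered every log2 ratio by 0.13. Of the osteoblast markers with a probe set used here, 4 of 7 were measured. Their summed signals of 27897 in Ebf2-/- and 14184 in Ebf2+/- cells came mainly from the type I collagen genes. At least 2-fold higher in Ebf2-/- cells were 2 of the 4, Alpl and Col1a1, beside 6.29% of all measured genes. The count was 1 with spike-in, quantile or lowess scaling, with 50 added to both signals, or with probe sets averaged. The other Col1a1 probe set had a log2 ratio of -0.49. Alpl, alkaline phosphatase, read 51.8 in Ebf2-/- and 25.4 in Ebf2+/- cells (log2 ratio 0.43 with 50 added to both signals). Sp7, the transcription factor osterix, read 53.3 in Ebf2-/- and 83.7 in Ebf2+/- cells. Ibsp, Dmp1 and Phex, genes of mineralizing osteoblasts and osteocytes, were under background on both arrays. The part of RNA quality and of cell composition in the ratios was not tested, and in bulk RNA fewer cells of a type cannot be told apart from less RNA per cell.

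The promoters of the genes with the largest differences in either direction, Thbs4, Postn and Tgfbi, are shown because Ebf2 is a DNA-binding factor that recognizes a palindrome. Each is the 250 bases before an annotated RefSeq start (GRCm38.p6), 5' to 3' on the gene's strand, with matches to the searched motifs in capitals. The Postn sequence belongs to the downstream of its 2 listed starts.
Thbs4, chr13:92794819-92795068, minus strand: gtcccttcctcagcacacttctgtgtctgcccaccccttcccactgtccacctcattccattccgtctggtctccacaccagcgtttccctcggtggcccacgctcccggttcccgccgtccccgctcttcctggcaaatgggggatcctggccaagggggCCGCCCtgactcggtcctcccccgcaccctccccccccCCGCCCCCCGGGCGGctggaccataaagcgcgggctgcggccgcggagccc
Postn, chr3:54360857-54361106, plus strand: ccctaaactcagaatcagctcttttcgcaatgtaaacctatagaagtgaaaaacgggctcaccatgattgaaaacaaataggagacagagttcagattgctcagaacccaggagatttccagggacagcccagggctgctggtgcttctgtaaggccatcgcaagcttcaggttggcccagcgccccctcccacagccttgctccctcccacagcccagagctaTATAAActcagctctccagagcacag
Tgfbi, chr13:56609336-56609585, plus strand: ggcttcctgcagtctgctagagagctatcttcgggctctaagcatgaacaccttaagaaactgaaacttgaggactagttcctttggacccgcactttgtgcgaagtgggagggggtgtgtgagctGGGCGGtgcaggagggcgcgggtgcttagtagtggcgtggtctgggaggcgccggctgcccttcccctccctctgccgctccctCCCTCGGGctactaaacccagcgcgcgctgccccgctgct
The motifs, read on both strands, were the EBF core CCCNNGGG, the full EBF palindrome (that core preceded by T and followed by A), the TATA box TATAAA, the GC box GGGCGG, the RUNX motif TGTGGT and the AP-1 motif TGANTCA.

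The table held promoters for 7 of the 10 genes, in 9 entries. None of these held the full palindrome, which occurs in 0.779% of all 32851 windows of the same length. The core CCCNNGGG was present in Thbs4, from 47 to 40 bases before the start (-47 to -40) and overlapping 2 GC boxes, and in Tgfbi at -40 to -33, against 11.8% of all windows. Thbs4 and Tgfbi thus both carry the core, and their signals differed in opposite directions. Both windows are rich in G and C, with 70.8% for Thbs4 and 62.4% for Tgfbi against a median of 52.4% over all windows, and both have a GC box, as 32.7% of windows do. The downstream start of Postn has a TATA box at -26, a motif of 12.4% of windows, and its upstream start has no match. A match is a description of letters and not evidence of binding.

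**Figure D1:**
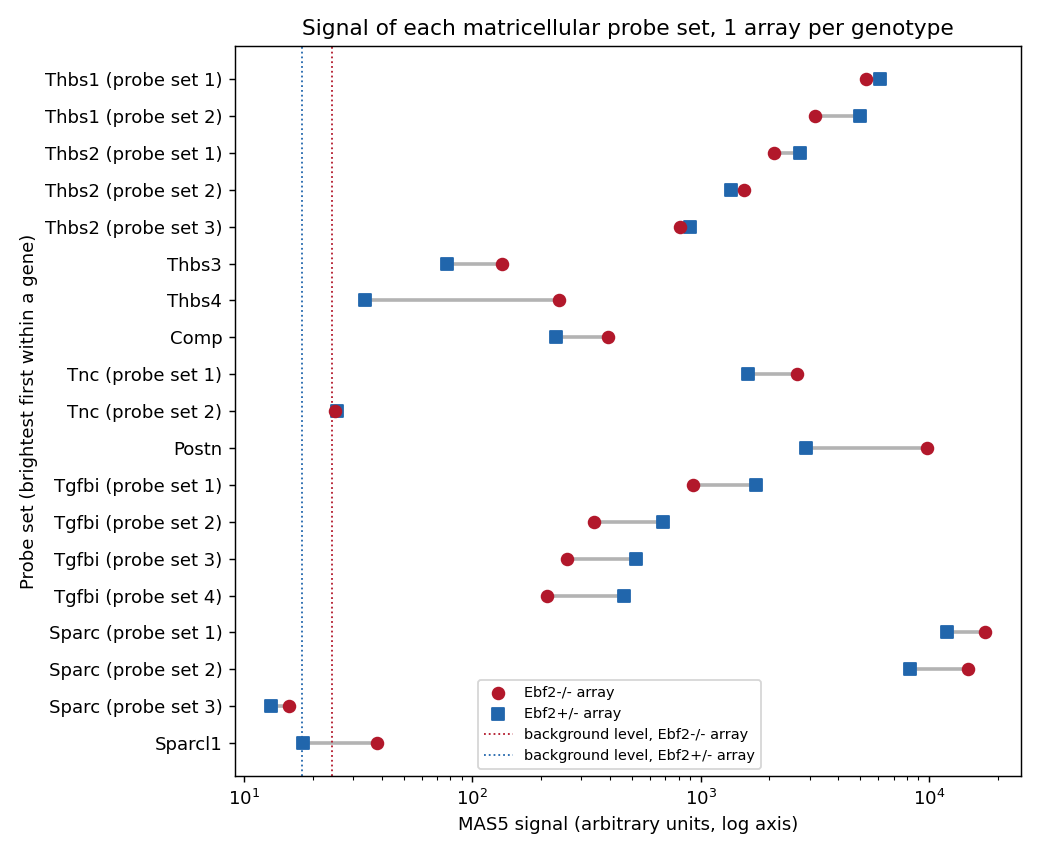
MAS5 signal (log axis) of all 19 probe sets on the Ebf2-/- array (circles) and the Ebf2+/- array (squares), 1 array each, with the background of each array as a dotted line. Thbs4 and Postn are displaced to higher signal in Ebf2-/- cells and the 4 Tgfbi probe sets to lower signal; Sparcl1 lies next to the Ebf2+/- background. Distances between rows are not comparable, because probe sets differ in affinity.

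Among the 19 probe sets 18 were measured, all of them above background on both arrays. The remaining probe set, the third for Sparc, read 15.7 in Ebf2-/- and 13.1 in Ebf2+/- cells and lay under background on both. With the brightest probe set standing for each gene, 3 of 10 genes were at least 2-fold higher in Ebf2-/- cells, against 6.29% of 11743 measured genes, and 0 were at least 2-fold lower, against 3.41%. Counting any difference, 7 genes were higher and 3 lower, with 46.8% and 47.8% of all measured genes as the background. The median log2 ratio was 0.74 over the 10 genes and 0.03 over all measured genes. By probe set the picture was more even: 9 were higher and 9 lower, with 45.7% and 47.3% of measured probe sets as the background. At least 2-fold were 3 of 18 in each direction, against 6.58% (higher) and 3.57% (lower) of measured probe sets, and the 3 lower ones all belong to Tgfbi, so they are not independent.

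**Figure D2:**
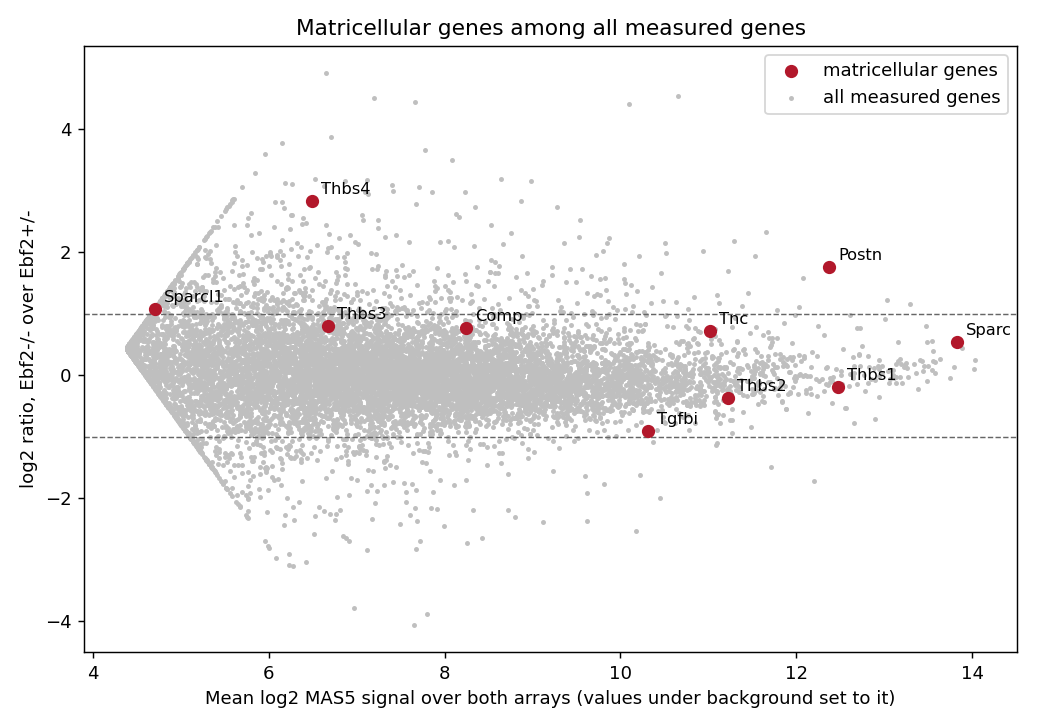
Log2 ratio of Ebf2-/- over Ebf2+/- signal against mean log2 signal for the 11743 measured genes (grey) and the 10 matricellular genes (red); dashed lines mark 2-fold. Thbs4 and Postn stand above the upper line, Sparcl1 sits just over it at the dim edge, and Tgfbi lies just inside the lower line.

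Thrombospondins fall into structural classes. Thbs1 and Thbs2 encode trimers with type 1 repeats, the modules that bind the scavenger receptor CD36, while Thbs3, Thbs4 and Comp encode pentamers that lack these repeats. The 3 pentamer genes, with a probe set each, were all higher in Ebf2-/- cells (median log2 ratio 0.80). Of the 5 probe sets for the trimer genes 4 were lower (median -0.20). Among all measured probe sets 45.7% were higher and 47.3% lower. Every trimer probe set but 1 for Thbs1 (-0.66) lay within the pooled SD of 0.44. The values describe 8 probe sets, and the difference between the classes was not tested.

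Thbs4, a thrombospondin of tendon and muscle, had the largest difference of the 10 genes. Its probe set read 240.4 on the Ebf2-/- array and 33.8 on the Ebf2+/- array, a log2 ratio of 2.83. This ranked 31st from the highest among measured genes. The Ebf2+/- signal was 1.88 times its background, so the size of the ratio rests on a dim value: with a pseudocount of 50 added to both signals the log2 ratio was 1.79.

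Comp, cartilage oligomeric matrix protein, is a component of cartilage and tendon matrix that binds collagen fibrils. It read 394.6 in Ebf2-/- and 232 in Ebf2+/- cells, 1.70-fold higher. Thbs3, a relative active in skeletal growth in the mouse, read 135 in Ebf2-/- and 77.4 in Ebf2+/- cells, 1.74-fold higher. Both log2 ratios, 0.77 and 0.80, exceeded the pooled SD of 0.44 and stayed under 2-fold.

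Thbs4 and Comp are best known from tendon and cartilage, so markers of both tissues were set beside them. Of 11 chondrocyte markers 8 were measured, 6 of them lower by at least 2-fold and 0 higher in Ebf2-/- cells, beside 3.41% and 6.29% of all measured genes (median log2 ratio -2.33), with summed signals of 3367 in Ebf2-/- and 12318 in Ebf2+/- cells. Matn1, Matn3 and Chad were under background by the probe set used. Col2a1, with 2592 in Ebf2-/- and 8542 in Ebf2+/- cells, made up most of both sums. Acan, the cartilage proteoglycan, read 88.3 in Ebf2-/- and 428 in Ebf2+/- cells, the direction opposite to Comp. Sox9 hardly differed, with 209 in Ebf2-/- and 213 in Ebf2+/- cells, and its 3 probe sets ranged from -0.02 to 0.88 in log2 ratio. Those for Hapln1 ranged from -3.03 to -0.48. Of 6 tendon markers 5 were measured and 1 was at least 2-fold higher, Chodl, which read 114 in Ebf2-/- cells and was under background in Ebf2+/- cells (at least 6.35-fold). The tenocyte regulator Scx read 36.8 in Ebf2-/- and 38.0 in Ebf2+/- cells, with log2 ratios from -0.05 to 1.24 over its measured probe sets. Tenomodulin, Tnmd, read 2135 in Ebf2-/- and 1786 in Ebf2+/- cells, and Kera was under background on both arrays. Fibromodulin, Fmod, a collagen-binding proteoglycan also made in cartilage, read 5970.2 in Ebf2-/- and 9720.2 in Ebf2+/- cells and was lower by all 6 probe sets (log2 ratios from -1.53 to -0.42). The measured tendon markers summed to 8294 in Ebf2-/- and 11586 in Ebf2+/- cells, and Fmod made up most of both sums. By gene 3 were higher and 2 lower in Ebf2-/- cells, with a median log2 ratio of 0.26. The tendon regulator Mkx read 38.6 in Ebf2-/- and 28.5 in Ebf2+/- cells. Of 6 skeletal muscle markers 1 was measured, Acta1, with 105 in Ebf2-/- and 45.0 in Ebf2+/- cells. It was 2.32-fold higher in Ebf2-/- cells, the direction of Thbs4, but its log2 ratio was 0.70 with a pseudocount of 50. Ckm, Myh3, Tnnt3, Myog and Des were under background on both arrays. The part of tendon, cartilage or muscle cells in the Thbs4 and Comp values was not tested.

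Thbs1, which can activate latent TGF-beta and signals through CD47, was measured by 2 probe sets. The brighter read 5317 in Ebf2-/- and 6090.2 in Ebf2+/- cells and the other 3158 in Ebf2-/- and 4994 in Ebf2+/- cells. Both were lower in Ebf2-/- cells, with log2 ratios of -0.20 and -0.66; the first is within the pooled SD between probe sets and the second beyond it. A further probe set, annotated to Thbs1 together with Pald1, was left out by the rule because its signal cannot be assigned to either gene. It went the other way, with 5971 in Ebf2-/- and 5173 in Ebf2+/- cells.

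Thbs2, whose loss in mice disturbs collagen fibrils and raises bone density, had 3 probe sets that did not go the same way. They read 2099.8, 1556 and 813 in Ebf2-/- cells, against 2716, 1357 and 898 in Ebf2+/- cells. The log2 ratios of -0.37, 0.20 and -0.14 all lay within the pooled SD between probe sets of a gene, which is not a replicate error. These arrays therefore give no single direction for Thbs2.

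**Figure D3:**
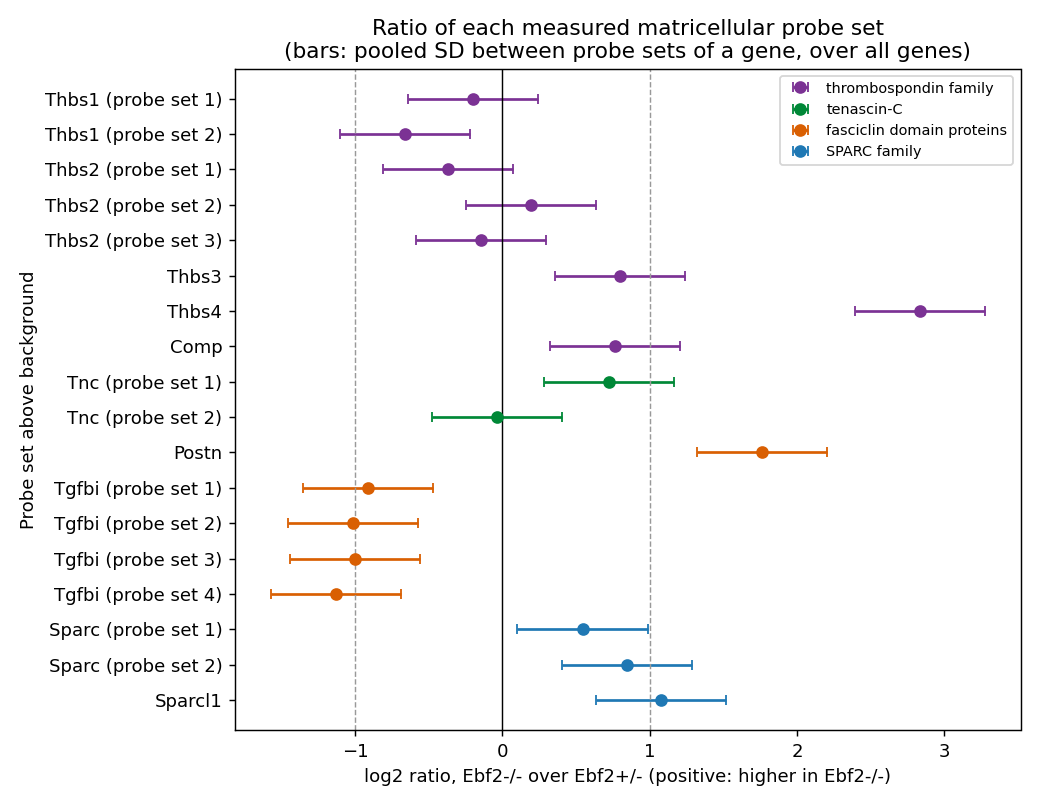
Log2 ratio of Ebf2-/- over Ebf2+/- signal for the 18 measured probe sets, coloured by protein family, with bars of ± 0.44 (pooled SD between probe sets of a gene over all genes, not a replicate error) and dashed lines at 2-fold. Thbs4 (2.83) and Postn (1.76) lie farthest to the right, the 4 Tgfbi probe sets cluster near -1, and those for Thbs1 and Thbs2 lie between -0.66 and 0.20.

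Tenascin-C, Tnc, is a large glycoprotein of perichondrium, tendon and wounds that weakens adhesion to fibronectin. Its brighter probe set read 2654 in Ebf2-/- and 1608 in Ebf2+/- cells, 1.65-fold higher (log2 ratio 0.72). The other read 24.9 in Ebf2-/- and 25.5 in Ebf2+/- cells, with a log2 ratio of -0.03, and stood barely above background on the Ebf2-/- array. The higher Tnc signal therefore comes from the brighter probe set alone, and the mean over both gave a log2 ratio of 0.34.

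Periostin and the TGF-beta-induced protein are paralogs with 4 fasciclin domains, and their genes differed in opposite directions. Postn, named for the periosteum, supports collagen assembly and cross-linking and binds integrins that contain the alpha v chain. It read 9763 in Ebf2-/- and 2884 in Ebf2+/- cells, a log2 ratio of 1.76 that ranked 186th from the highest. Both signals were far above background, 401 and 161 times it, so the pseudocount hardly moved the ratio (1.74).

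Tgfbi encodes a secreted adhesion protein that binds collagens and integrins and is induced by TGF-beta. Its 4 probe sets read 925, 339, 261 and 212 in Ebf2-/- cells, against 1739, 684, 522 and 464 in Ebf2+/- cells. All were lower in Ebf2-/- cells and close in size, with log2 ratios between -1.13 and -0.91. The brightest, which stands for the gene, fell short of 2-fold, while the other 3 passed it narrowly, so whether Tgfbi counts as 2-fold lower depends on the probe set. A ratio at least as low as that of the brightest was seen in 4.19% of measured genes.

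Markers of macrophages, which also make Tgfbi and Thbs1, and of fibroblasts differed between the arrays as well; over all measured genes 6.29% passed 2-fold upward and 3.41% downward. Of 12 macrophage and leukocyte markers 11 were measured and all 11 were at least 2-fold lower in Ebf2-/- cells by the brightest probe set (median log2 ratio -2.33, summed signals of 1793 in Ebf2-/- and 7838 in Ebf2+/- cells), with Itgam under background on both. The count was 8 with probe sets averaged and 9 without shared probe sets. Probe sets for Laptm5 ranged from -2.33 to 0.33 in log2 ratio, and those for Msr1 from -2.77 to -0.95. Of 6 fibroblast and progenitor markers 5 passed 2-fold upward and 0 downward (median log2 ratio 2.09, summed signals of 12856 in Ebf2-/- and 3680 in Ebf2+/- cells), which is the direction of Postn. Schwann cell and neuron markers were at least 2-fold lower for 4 of 5 measured genes, with summed signals of 307 in Ebf2-/- and 1037 in Ebf2+/- cells. This count was 3 with probe sets averaged and 2 with a pseudocount of 50. Measured probe sets for Sox10 ranged from -0.82 to 0.55 in log2 ratio, and those for Ngfr from -2.84 to -0.34. The part of these cell types in the Tgfbi and Postn values was not tested.

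Sparc, which binds collagen and calcium and is abundant in bone matrix, was measured by 2 probe sets. The brighter read 17570.4 in Ebf2-/- and 12049 in Ebf2+/- cells and the other 14829 in Ebf2-/- and 8255 in Ebf2+/- cells. Both were higher in Ebf2-/- cells, by 1.46-fold and 1.80-fold, beyond the pooled SD and under 2-fold.

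Sparcl1, or hevin, an anti-adhesive relative of Sparc, read 38.0 in Ebf2-/- and 18.1 in Ebf2+/- cells. The Ebf2+/- signal was 1.01 times its background, so Sparcl1 was detected in Ebf2-/- cells and hardly in Ebf2+/- cells. Its log2 ratio of 1.08 was 0.37 with a pseudocount of 50 and under 2-fold in 5 of 9 alternative settings. The remaining settings left the value unchanged, so every alternative that moved it brought it under 2-fold. Sparcl1 is the least secure of the 3 genes past 2-fold.

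**Figure D4:**
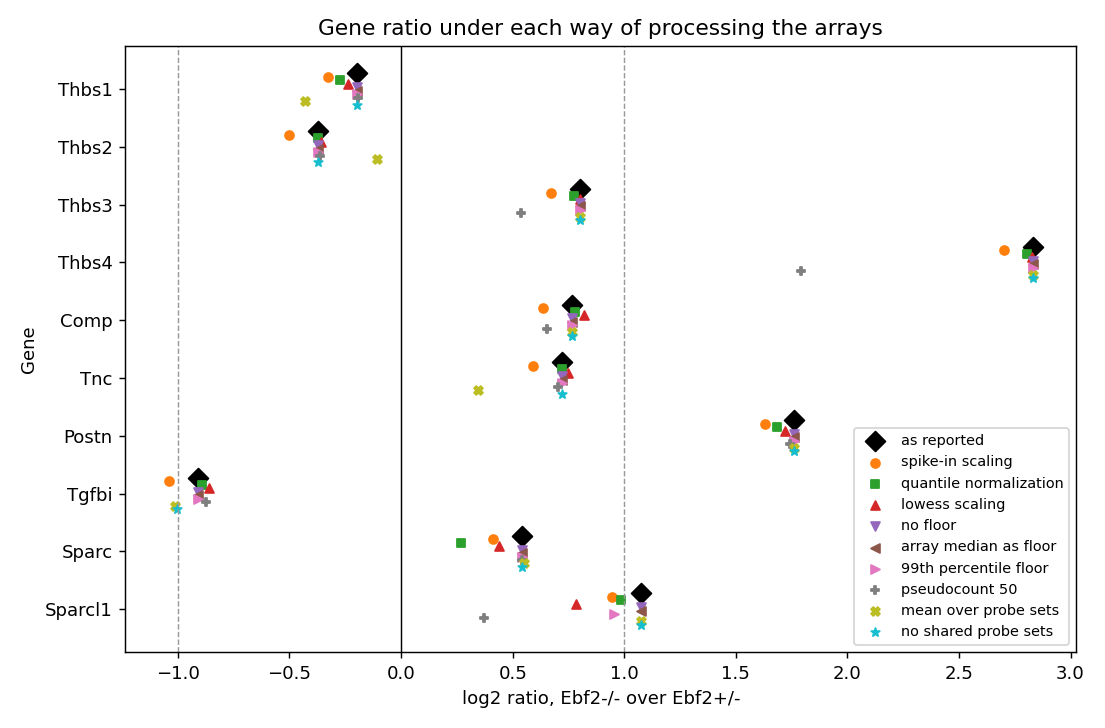
Log2 ratio of each gene as reported (black diamonds) and under 9 alternative ways of scaling the arrays, treating low signals or choosing probe sets, with dashed lines at 2-fold. Every gene keeps its side of 0. Thbs4 and Postn stay past 2-fold, though only the other scalings and the pseudocount change their values. Tgfbi and Sparcl1 straddle the line.

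Receptors for these proteins were examined as a list of 25 genes, of which 24 were measured. Past 2-fold lay 2 higher and 2 lower genes, beside 6.29% and 3.41% of all measured genes, and the median log2 ratio was 0.07. Cd36, the receptor for the type 1 repeats of Thbs1 and Thbs2, was under background in Ebf2-/- cells and read 101 in Ebf2+/- cells. It was at least 4.15-fold lower in Ebf2-/- cells, and its probe sets ranged from -2.05 to -0.16 in log2 ratio. Macrophages, whose markers were lower on the same array, also express Cd36, and their part in its value was not tested. Cd47, the receptor for the carboxy-terminal domain of thrombospondins, read 641 in Ebf2-/- and 511 in Ebf2+/- cells, a log2 ratio of 0.33.

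Integrin chains differed in either direction. Itgav, whose product pairs with several beta chains to bind periostin and other ligands, read 1524 in Ebf2-/- and 1629 in Ebf2+/- cells (log2 ratio -0.10). Itga5, the fibronectin receptor chain, read 267 in Ebf2-/- and 55.2 in Ebf2+/- cells, 4.84-fold higher, but its measured probe sets ranged from 0.28 to 2.27 in log2 ratio. Itga6, a laminin receptor chain, read 146 in Ebf2-/- and 345 in Ebf2+/- cells, 2.37-fold lower. Calr, calreticulin, which at the cell surface takes part in Thbs1 signalling through Lrp1, read 5095 in Ebf2-/- and 2444 in Ebf2+/- cells, 2.08-fold higher. All 3 of its probe sets exceeded 2-fold, with log2 ratios from 1.06 to 1.66. With spike-in scaling the brightest of them fell under 2-fold.

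Other matricellular and adaptor genes of the matrix formed a list of 14, of which 7 were measured. Matn2, matrilin-2, was the 1 gene at least 2-fold higher, with 472 in Ebf2-/- and 208 in Ebf2+/- cells (2.27-fold; 0.61 in log2 ratio by its other probe set), and 0 were at least 2-fold lower, beside 6.29% and 3.41% of all measured genes. Shares of this size in so short a list do not set it apart from the background. Tnn, tenascin-N, a tenascin of periosteum, came next with 56.2 in Ebf2-/- and 28.8 in Ebf2+/- cells, 1.95-fold higher. Its Ebf2+/- signal was near background, and its log2 ratio was 0.43 with a pseudocount of 50. The tenascins Tnr and Tnxb were under background on both arrays.

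Matrix and processing partners were mostly higher in Ebf2-/- cells, 16 of 19 by any amount beside 46.8% of all measured genes. The 16 include Fn1 (log2 ratio 0.04) and Tgfb2 (0.00), which lie under the spike-in shift of 0.13. Of the 19, all measured, 6 passed 2-fold upward and 1 downward in Ebf2-/- cells, beside 6.29% and 3.41%, with a median log2 ratio of 0.59 against 0.03 over all measured genes. The upward count was 5 with a pseudocount of 50 and 4 with probe sets averaged, where the median was 0.36. The TGF-beta ligands Tgfb1 (77.1 in Ebf2-/- and 25.8 in Ebf2+/- cells) and Tgfb3 (1346 and 539) were 2.99-fold and 2.49-fold higher, but the Ebf2+/- signal of Tgfb1 was near background and its log2 ratio was 0.75 with a pseudocount of 50. Tgfb2, the remaining ligand, read 109 in Ebf2-/- and 108 in Ebf2+/- cells, with log2 ratios from -0.80 to 0.00 over 4 probe sets. Ltbp1, a latency-associated binding protein, was 3.26-fold lower (168 in Ebf2-/- and 549 in Ebf2+/- cells), with a log2 ratio of 0.08 by its other measured probe set. Adamts1, a protease that cleaves Thbs1 and Thbs2, read 1131 in Ebf2-/- and 396 in Ebf2+/- cells, 2.85-fold higher.

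Collagens that these proteins bind, and the enzymes that cross-link them, were among the same partners. Col1a1 read 12784 in Ebf2-/- and 5478 in Ebf2+/- cells, 2.33-fold higher, but its second probe set had a log2 ratio of -0.49. Col3a1 read 15039 in Ebf2-/- and 6729 in Ebf2+/- cells, 2.23-fold higher, with a log2 ratio of 2.01 by its other probe set. Plod2, the lysyl hydroxylase of collagen telopeptides, was 2.48-fold higher and Lox, lysyl oxidase, which cross-links collagen, read 11266 in Ebf2-/- and 6001 in Ebf2+/- cells, 1.88-fold higher. Bmp1, the protease that activates lysyl oxidase, read 276 in Ebf2-/- and 171 in Ebf2+/- cells, with log2 ratios of 0.69 and -1.14 by its 2 measured probe sets.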

How the data were processed

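The authors deposited linear intensity values (MAS5 signals) of 45101 probe sets on 2 arrays, with MAS5 credited to the submitters' processing notes; its version was not given there. With 2% trimmed at each end, the mean intensity was 100.001 on both arrays, so the authors scaled them alike and a general shift of expression is invisible. Symbols came from the platform annotation: 34958 probe sets had 1 symbol, 932 several and 9211 were not listed. The probe set with the highest log2 signal, averaged over the arrays, stood for a gene. Values under background were set to it before the log2 ratio of Ebf2-/- over Ebf2+/- was taken; where the brighter signal did not exceed the other array's background no fold is given. All 10 genes and their probe sets are reported; from the receptor list the genes past 2-fold plus Cd36, Cd47 and Itgav were to be named, and from the other lists those past 2-fold. Other list genes named in the text (Tnn, Lox, Bmp1, Fn1, Tgfb2, Tnr, Tnxb and the cell type markers) were chosen after their values were seen. Genes, lists and settings were chosen with earlier results of these data known. Some genes stand in more than 1 list: Col1a1 and Col1a2 are partners and osteoblast markers, Matn1 and Matn3 are relatives and chondrocyte markers. The ratio procedure was tested on simulated data. Python 3.11.15, numpy 2.4.6, pandas 2.3.3 and statsmodels 0.14.6 were used.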

Additional observations from a re-analysis of the deposited data

How the results depend on the processing

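With 1 array per genotype no replicate could be left out, and no p-value supports any ratio. No paired analysis was possible because each genotype has a single array. Over 9 alternatives none of the 10 gene ratios changed sign. Not every alternative could move every gene. Other background levels leave bright signals unchanged, and the choice of probe sets leaves genes with 1 probe set unchanged. Thbs4 ranged from 1.79 to 2.83 and Postn from 1.63 to 1.76 in log2 ratio. For both, only the other scalings and the pseudocount changed the value. Sparcl1 ranged from 0.37 (pseudocount 50) to 1.08 and was under 2-fold with spike-in, quantile or lowess scaling, the 99th percentile as background, or the pseudocount. Tgfbi counted as 1 gene at least 2-fold lower, in place of 0, with spike-in scaling, with probe sets averaged and without shared probe sets. Of the 18 measured probe sets, 1 was at least 2-fold lower with quantile or lowess scaling and 0 with the pseudocount, in place of 3. In the receptor list 1 gene was at least 2-fold higher with spike-in scaling and 4 without shared probe sets, in place of 2, and 1 was lower with the mean over probe sets, in place of 2. In the list of other matricellular genes 0 were higher with the mean over probe sets, in place of 1, and 3 were lower with no background level, in place of 0. Among the partners 4 were higher and 0 lower with the mean over probe sets, in place of 6 and 1, and 5 were higher with the pseudocount. Over all measured genes 739 passed 2-fold upward and 400 downward as reported, 563 and 550 with spike-in scaling, 3041 and 2616 with no background level, and 280 and 134 with the pseudocount. The cause of these changes was not tested. Signals near background (among them Sparcl1, the second Tnc probe set, and Thbs4, Tgfb1, Tnn and Alpl in Ebf2+/- cells) have the least certain ratios.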
